A study of Homo sapiens with 8 samples.

Results

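Skipped-exon splicing of the CDC2-like kinases CLK1, CLK2, CLK3 and CLK4 and of the transformer 2 proteins TRA2A and TRA2B was measured in 2 human breast epithelial lines grown with or without emetine. The members were all skipped-exon events that the deposited tables list under these 6 gene symbols, of 13437 genes in all. They came to 68 distinct events on 44 exons. Of these, 47 events were in the MCF10A table (of 82355) and 58 in the HMLE TWIST table (of 98244), and 37 were in both. Reads were sufficient to test 23 member events in MCF10A, 26 in HMLE TWIST and 28 over all libraries of both lines.

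MCF10A is a non-tumorigenic breast epithelial line. HMLE TWIST, labelled HMLE-TWIST, is an immortalised breast epithelial line that overexpresses the transcription factor TWIST from a retrovirus integrated with the vector pBabe, so both of its groups carry this transgene. Each line was given DMSO, the solvent, or 10 µM emetine for 24 h. Emetine is a plant alkaloid that blocks translation. There were 2 libraries per group and 8 in all. The series screens for regulators of alternative splicing that act through RNA G-quadruplexes, structures formed by runs of guanine. The labels do not say whether the 2 libraries of a group came from separate cultures, so p-values measure the spread between these libraries, which may be technical.

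CLK kinases sit mainly in the nucleus and phosphorylate the arginine-serine domains of SR proteins, the splicing factors that bind exonic enhancers. TRA2 proteins are SR-like factors that bind GAA-rich exon sequences and promote the inclusion of those exons. Both families are known to control their own amount by splicing: TRA2 pre-mRNAs hold a poison exon that brings a stop codon, and CLK pre-mRNAs can skip a coding exon before the kinase domain, which shifts the frame. Transcripts with an early stop codon are commonly removed by nonsense-mediated decay, a process that depends on translation. The level of a form therefore reflects both its splicing and its stability, and in these data a change of splicing and a change of stability cannot be told apart.

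The exons chosen for a description of sequence are exon 4 of each CLK gene and the poison exons of the TRA2 genes. Their sequences were read from GENCODE 29 transcripts whose exon and flanking intron lengths match the deposited events. The 4 CLK exons are shown 5′ to 3′ because skipping any of them shifts the frame. Capitals mark runs of GGG.
CLK1 91-nt exon: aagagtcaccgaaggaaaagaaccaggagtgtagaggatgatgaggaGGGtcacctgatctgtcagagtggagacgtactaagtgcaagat
CLK4 91-nt exon: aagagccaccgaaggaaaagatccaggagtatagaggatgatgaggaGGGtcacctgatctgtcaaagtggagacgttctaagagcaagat
CLK2 88-nt exon: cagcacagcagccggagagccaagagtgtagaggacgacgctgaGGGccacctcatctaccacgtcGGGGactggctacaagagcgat
CLK3 97-nt exon: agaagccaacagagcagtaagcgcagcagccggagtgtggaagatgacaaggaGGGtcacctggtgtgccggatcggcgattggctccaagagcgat
The exons of CLK1 and CLK4 are identical at 85 of 91 bases (93.4%), whereas the other 5 pairs were 64.6% to 67.4% identical after alignment. The GC content was 48.4% in CLK1 and 47.3% in CLK4, below the 61.4% of CLK2 and the 58.8% of CLK3. The letters GGG occur once in the exons of CLK1, CLK4 and CLK3 and, counted with overlap, 3 times in that of CLK2. GGG is found in 61.6% of the 4414 tested exons of 80 to 100 nt that could be matched, and on the other strand in 61.3%, so its presence does not set these exons apart.

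All 4 exons have a length that is not a multiple of 3. Joining exon 3 to exon 5 brings an early stop, shown here from the last 12 bases of exon 3 to the stop in capitals.
CLK1 exon 3 joined to exon 5: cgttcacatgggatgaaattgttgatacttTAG
CLK4 exon 3 joined to exon 5: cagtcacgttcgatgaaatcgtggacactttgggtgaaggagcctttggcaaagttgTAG
CLK2 exon 3 joined to exon 5: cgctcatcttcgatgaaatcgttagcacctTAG
CLK3 exon 3 joined to exon 5: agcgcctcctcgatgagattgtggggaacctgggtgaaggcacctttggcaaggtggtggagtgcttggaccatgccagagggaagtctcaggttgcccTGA
The frame of the skipped form ends after 136 codons in CLK1 (484 in the full frame), 143 in CLK4 (481), 139 in CLK2 (499) and 152 in CLK3 (490). The stop lies in exon 5, or in exon 6 for CLK3, and the last exon junction is 740 to 809 bases further on in each gene. GENCODE classes the 1 transcript with this skip as nonsense-mediated decay in CLK1 and as a processed transcript in CLK2, while CLK4 has 1 of each class and CLK3 has 2 of nonsense-mediated decay and 2 classed as protein coding.

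The poison exons of the TRA2 genes are shown for their GAA content, with GAA in capitals. TRA2B is given from the first base of its 276-nt exon to the first stop in frame, also in capitals, and TRA2A as the shortest of 3 forms that share a 3′ splice site.
TRA2B 276-nt exon to its stop: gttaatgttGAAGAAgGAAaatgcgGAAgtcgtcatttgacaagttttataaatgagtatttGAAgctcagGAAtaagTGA
TRA2A 79-nt exon: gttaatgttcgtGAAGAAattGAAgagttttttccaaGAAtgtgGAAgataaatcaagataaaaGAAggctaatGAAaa
The whole TRA2B exon holds 28 GAA, which is 10.1 per 100 nt, and the TRA2A exon holds 32 in its 301-nt form (10.6 per 100 nt) and 7 in its 79-nt form (8.86 per 100 nt), against a median of 2 per 100 nt over 26556 matched exons. GAAGAA occurs 3 times in the TRA2B exon and 4 times in the TRA2A 301-nt form, and it is present in 18.2% of the 758 matched exons of 250 to 350 nt (10.3% on the other strand). The TRA2B frame stops after 38 codons, 81 bases into the exon. For the longer TRA2A forms the frame was read from exon 1 of the coding transcript joined to the exon, and it stops after 59 codons, 144 bases into the exon. GENCODE classes the matched transcript of the 301-nt form as protein coding with 0 coding bases in this exon and that of the 312-nt form as a processed transcript. The frame of the 79-nt form runs on into exon 3 and stops there after 63 codons. Its transcript is classed as nonsense-mediated decay.

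For each event the inclusion level is the share of the inclusion form, from 0 to 1, among the inclusion and skipping forms of that event. It was computed from junction reads scaled by the effective length of each form. Other transcripts of the gene do not enter it, so an exon can have different levels in different events. A change is the mean under emetine minus the mean in DMSO. The tables number their groups without naming them, and the group listed first was taken as DMSO from the word order of each table's name, so every direction given here rests on that reading. An event was called changed where the quasi-binomial model gave a Benjamini-Hochberg adjusted p under 0.05 over all events of the fit and the level moved by at least 0.1. The adjusted p-values of limma on the log2 odds of inclusion are given beside them. Libraries held 78412292 to 91259363 junction reads summed over events, and reads shared by several events entered this sum more than once. Epithelial CDH1 had 1362 to 1563 reads in the MCF10A controls and at most 2 in those of HMLE TWIST, where mesenchymal FN1 had 83048 to 94246. Mesenchymal VIM had many reads in both lines, 24923 to 28296 in the MCF10A controls and 181765 to 190386 in those of HMLE TWIST. The lines list unequal numbers of events, 5 in MCF10A and 1 in HMLE TWIST for CDH1, 5 and 50 for FN1, and 1 and 18 for VIM. The epithelial markers KRT5 and KRT14 had no event in HMLE TWIST, while EPCAM, KRT18 and GRHL2, also epithelial, had none in either line. The leukocyte marker PTPRC had at most 2 reads, and the endothelial markers PECAM1 and CDH5 had no event in either line.

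In MCF10A, 3 of 23 member events were called (1 higher, 2 lower under emetine). This is close to the background, since 13.0% of all 25522 tested events were called, 7.9% higher and 5.15% lower. In HMLE TWIST, 8 of 26 were called (2 higher, 6 lower), against 14.0% of 30290 events, 6.11% higher and 7.91% lower. By limma, 2 member events were called in MCF10A and 7 in HMLE TWIST, against 7.88% and 9.94% of all events. Member events share junctions and genes and are not independent. Of the 8 in HMLE TWIST, 4 were in CLK2 and 1 each in CLK3, CLK4, TRA2A and TRA2B. The median change over the members was -0.00318 in MCF10A and -0.00223 in HMLE TWIST, beside -0.000168 and -0.00315 over all tested events. The median size of the change was 0.0572 and 0.0662 in the members, beside 0.0239 and 0.0255. Leaving out either emetine library left 1 residual degree of freedom, and no event of the whole table was then called in that line (smallest adjusted p 0.156 to 0.192). The prior degrees of freedom of the dispersions were 1.05 to 1.34 in those fits, against at least 6.75 without a control library, where 1 residual degree of freedom also remained and 2660 to 3237 events were called. The calls of an emetine effect therefore have no leave-one-out test for the emetine libraries, and none changed direction without either.

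Exon 4 of CLK2 and CLK3 was largely included in 3 groups. In HMLE TWIST under emetine its skipping form was about as frequent as its inclusion form. The CLK2 exon of 88 nt lies on chromosome 1 at 155238499 to 155238586, minus strand (gene ENSG00000176444.18), between introns of 692 and 348 nt. Its level was 0.960 and 0.991 in HMLE TWIST with DMSO and 0.468 and 0.405 with emetine. In MCF10A it was 0.968 and 0.963 with DMSO and 0.872 and 0.937 with emetine. The groups did not overlap in either line, and the HMLE TWIST libraries under emetine stood apart from the other 6. The level fell by 0.539 in HMLE TWIST (adjusted p = 2.86e-05, limma 0.0132), from 0.975 ± 0.022 to 0.436 ± 0.045 (SD, n = 2). In MCF10A the change was -0.0614 (adjusted p = 0.0294, limma 0.121), below the minimum of 0.1 and not called. Limma put the change of the log2 odds at -5.86 ± 0.77 (SE) in HMLE TWIST and -1.46 ± 0.53 in MCF10A.

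The counts of both CLK2 forms moved in HMLE TWIST. Skipping reads went from 10 and 2 to 189 and 217 with emetine, while inclusion reads went from 450 and 415 to 312 and 277. In MCF10A the skipping reads were 10 and 11 with DMSO and 33 and 15 with emetine. The second control of HMLE TWIST thus rests on 2 skipping reads. The CLK2 exon has a second form, 85 nt long, whose first 3 bases are spliced away (155238499 to 155238583). Its level in HMLE TWIST was 0.949 and 0.989 with DMSO and 0.419 and 0.319 with emetine, a fall of 0.600 (adjusted p = 5.78e-05, limma 0.0138). It shares its skipping reads with the 88-nt form, so the pair counts as 1 observation of skipping. In MCF10A the 85-nt form was listed as a separate event. Its change there was -0.0804, in the same direction but below the minimum and not called.

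CLK3 exon 4 also had its lowest levels in HMLE TWIST under emetine. This 97-nt exon lies on chromosome 15 at 74914461 to 74914557, plus strand (gene ENSG00000179335.18), between introns of 1894 and 277 nt. Its level was 0.980 and 0.986 in HMLE TWIST with DMSO and 0.450 and 0.569 with emetine. In MCF10A it was 0.981 and 0.998 with DMSO and 0.943 and 0.955 with emetine. Again control and emetine libraries did not overlap in either line. The level fell by 0.474 in HMLE TWIST (adjusted p = 2.38e-05, limma 0.0113), from 0.983 ± 0.0044 to 0.509 ± 0.084 (SD, n = 2). The change in MCF10A was -0.0407 (adjusted p = 0.00629, limma 0.124), below the minimum for a call. Skipping reads in HMLE TWIST went from 13 and 9 to 304 and 260, and in MCF10A from 9 and 1 to 45 and 40.

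**Figure D1:**
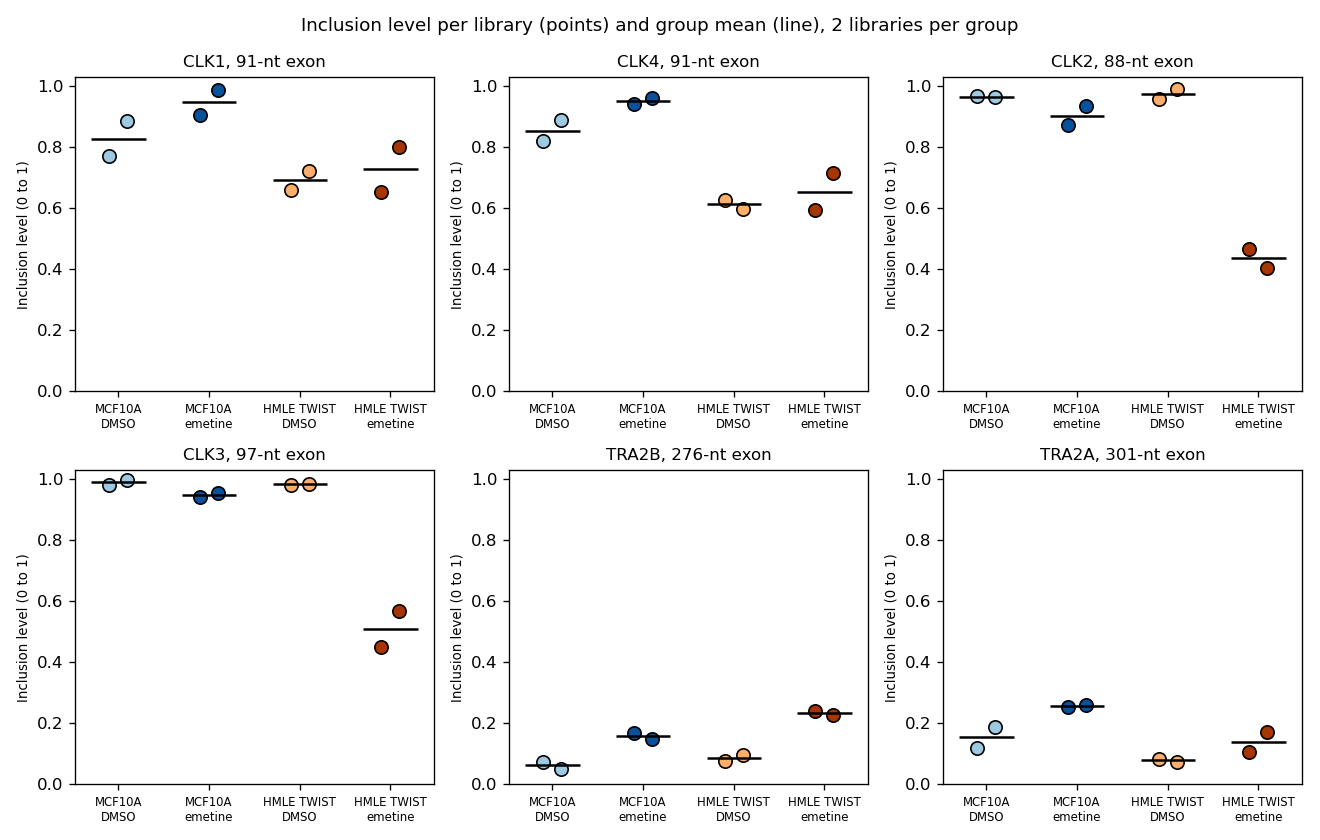
Inclusion level (0 to 1) of exon 4 of the 4 CLK genes and of the poison exons of TRA2B and TRA2A in each library, with points for the 2 libraries of a group and a line for their mean. The levels of CLK2 and CLK3 under emetine in HMLE TWIST, 0.405 to 0.569, lie below all other groups, whereas for CLK1 and CLK4 both HMLE TWIST groups lie below the MCF10A emetine group.

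Exon 4 of CLK1 and CLK4 did not show that fall. The CLK1 exon of 91 nt lies on chromosome 2 at 201724848 to 201724938, minus strand (gene ENSG00000013441.15), between introns of 1022 and 378 nt. Its level was 0.661 and 0.724 in HMLE TWIST with DMSO and 0.655 and 0.803 with emetine, and these groups overlapped. In MCF10A it was 0.771 and 0.886 with DMSO and 0.907 and 0.988 with emetine, which did not overlap. The change was 0.0365 in HMLE TWIST (adjusted p = 0.831, limma 0.687) and 0.119 in MCF10A (adjusted p = 0.151, limma 0.193), and neither was called. The CLK4 exon of 91 nt lies on chromosome 5 at 178044345 to 178044435, minus strand (gene ENSG00000113240.12), between introns of 1121 and 395 nt. Its level was 0.629 and 0.597 in HMLE TWIST with DMSO and 0.593 and 0.717 with emetine, again overlapping. In MCF10A it was 0.821 and 0.889 with DMSO and 0.942 and 0.963 with emetine. The change was 0.0423 in HMLE TWIST (adjusted p = 0.819, limma 0.662) and 0.0978 in MCF10A (adjusted p = 0.0379, limma 0.0742), just below the minimum of 0.1.

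Although neither ratio of forms was called, CLK1 and CLK4 had more reads under emetine in every library of both lines, a comparison of reads made without a test. The CLK1 exon event had 178 and 348 reads in MCF10A with DMSO and 2307 and 2078 with emetine. In HMLE TWIST it had 99 and 78 with DMSO and 831 and 640 with emetine. Scaled to the total junction reads of each library, reads under emetine were 8.2-fold higher in MCF10A and 8.32-fold higher in HMLE TWIST. These were the highest ratios of any CLK1 event, and the medians over CLK1 events were 4.09 and 3.68. In HMLE TWIST the inclusion form was 8.53-fold and the skipping form 7.45-fold higher. In MCF10A the inclusion form was 8.72-fold and the skipping form 2.78-fold higher, the latter going from 24 and 22 reads to 118 and 13. The pair of MCF10A emetine libraries thus differed widely in skipping reads. The reads of the CLK4 exon event were 8.98-fold higher in MCF10A and 6.95-fold higher in HMLE TWIST, beside medians of 5.32 and 5.76 over CLK4 events.

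**Figure D2:**
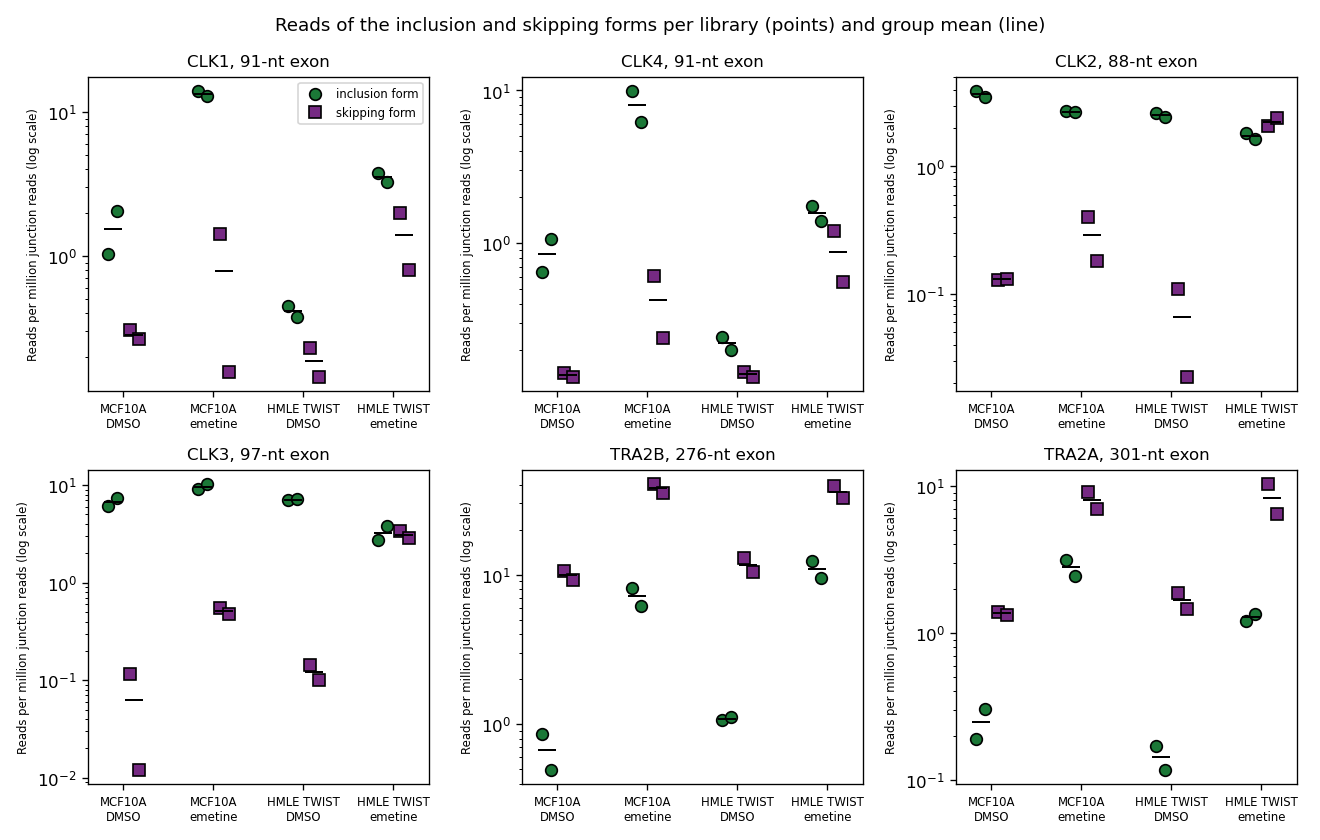
Reads of the inclusion form (circles) and skipping form (squares) scaled to the junction reads of the library, on a log axis, for the same 6 exons, with points for libraries and lines for group means. In CLK2 and CLK3 the skipping form climbs to the level of the inclusion form in HMLE TWIST under emetine, while in CLK1, CLK4, TRA2B and TRA2A the inclusion form climbs under emetine in both lines. The mean of the skipping form is also higher under emetine in both lines for CLK1, CLK4 and TRA2B. For CLK1 the second MCF10A emetine library lies below both of its controls in this form.

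The response of each exon was compared between the lines with the line-by-treatment term over all 8 libraries, and no test compared an exon with another. This test is made on the odds of inclusion, while the difference is printed on the level scale as the HMLE TWIST change minus the MCF10A change. It called 4 of 28 member events (2 higher, 2 lower), against 1.6% of 31825 events, 0.518% higher and 1.08% lower. Limma called none of the members and none of all events, and it gave an unadjusted p under 0.05 to 7 members and to 4058 of all events. For CLK2 exon 4 the difference was -0.478 (adjusted p = 0.00204, limma 0.225), and it was not called when any of 4 libraries was left out (adjusted p 0.0519 to 0.0964). Those were the second MCF10A control, either MCF10A emetine library and the second HMLE TWIST emetine library. For CLK3 it was -0.433, but the adjusted p was 0.102 (limma 0.429), so that a different response was not established on the odds scale. With 1 dispersion shared by all events, the CLK3 value was 0.00988. For CLK1 the difference was -0.0826 (adjusted p = 0.491) and for CLK4 -0.0555 (adjusted p = 0.355).

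Between the lines, the level of exon 4 under emetine was lower in HMLE TWIST for all 4 kinases. The difference, HMLE TWIST minus MCF10A, was -0.468 for CLK2 (adjusted p = 2.98e-12), -0.440 for CLK3 (adjusted p = 2.02e-15), -0.219 for CLK1 (adjusted p = 4.56e-07) and -0.297 for CLK4 (adjusted p = 6.45e-11). Limma gave adjusted p-values of 0.0583, 0.0719, 0.125 and 0.042 in that order. The CLK1 difference was not called without the first HMLE TWIST emetine library, where it was -0.145 with an adjusted p of 0.0612. These 4 were among 10 of 28 members called in this comparison (2 higher, 8 lower), against 7.92% of 31825 events, 1.58% higher and 6.34% lower. Limma called 1 member and 0.836% of all events. In the controls only CLK4 exon 4 was called, 1 of 28 members against 3.61% of all events (1.19% higher, 2.42% lower). Limma called no member there and 0.581% of all events. It gave an unadjusted p under 0.05 to 5 of 28 members and to 6187 of 31825 events. The level of CLK4 exon 4 was lower in HMLE TWIST, with a difference of -0.242 (adjusted p = 0.0431, limma 0.129), and was not called when any of the 8 libraries was left out (adjusted p 0.0573 to 0.325). The CLK1 difference in the controls was -0.136 (adjusted p = 0.389).

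CLK4 also had 3 further cassette exons towards the 5′ end of the gene, which share the same skipping reads and so are not independent. The exon of 67 nt (178049394 to 178049460) holds no coding base in the annotated transcript that matches it, where it is joined to the 836-nt exon. No annotated transcript matches the event whose levels are given here, in which it is joined to the exon after that. That of 836 nt (178046839 to 178047674) holds 106 coding bases in its match, a transcript classed as nonsense-mediated decay. A 59-nt form (178046839 to 178046897) uses the same downstream end as the 836-nt form. The level of the 67-nt exon in MCF10A was 0.231 and 0.127 with DMSO and 0.0307 and 0.0357 with emetine. It fell by 0.146 (adjusted p = 0.000944, limma 0.0351), and the change was -0.0940 without the first MCF10A control, below the minimum. In HMLE TWIST it was 0.239 and 0.0385 with DMSO and 0.0262 and 0.00596 with emetine. The HMLE TWIST controls differed widely on 11 and 2 inclusion reads, and the change of -0.123 was not called (adjusted p = 0.053, limma 0.115), though it was called without the second control (-0.223, adjusted p = 0.0244). In MCF10A its inclusion reads under emetine were 1.17-fold and its skipping reads 7.45-fold those in DMSO. In HMLE TWIST the ratios were 0.618 and 5.01, the inclusion reads going from 11 and 2 to 7 and 1.

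The 59-nt form of CLK4 had higher levels under emetine in HMLE TWIST and not in MCF10A. It was 0.231 and 0.0951 in HMLE TWIST with DMSO and 0.368 and 0.401 with emetine, a rise of 0.221 (adjusted p = 0.0312, limma 0.104). In MCF10A it was 0.266 and 0.260 with DMSO and 0.216 and 0.196 with emetine (-0.0567, adjusted p = 0.263). The difference between lines was 0.278 (adjusted p = 0.0372, limma 0.337). For the 836-nt form the change was 0.110 in HMLE TWIST (adjusted p = 0.119) and -0.0884 in MCF10A (adjusted p = 0.0229), and the difference between lines was 0.198 (adjusted p = 0.0421, limma 0.346). Both differences were lost when any library was left out (adjusted p 0.0502 to 0.467). The HMLE TWIST rise of the 59-nt form was 0.153 without the second control (adjusted p = 0.305). These rest on few reads, since the HMLE TWIST controls had 10 and 5 inclusion reads for the 59-nt form and 8 and 3 for the 836-nt form.

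Exons further along CLK2 and CLK1 were also skipped in part of the transcripts in HMLE TWIST under emetine. In CLK2 a junction that passes over both the 167-nt exon 7 (155236520 to 155236686) and the 95-nt exon after it (155235651 to 155235745) had 1 and 0 reads in HMLE TWIST with DMSO and 19 and 41 with emetine. The level of the 167-nt exon against this junction was 0.994 and 1 with DMSO and 0.898 and 0.766 with emetine. It fell by 0.165 (adjusted p = 0.00446, limma 0.0162), and the 95-nt exon fell by 0.147 on the same skipping reads (adjusted p = 0.00364, limma 0.0152). In MCF10A the 167-nt exon was at 0.970 and 0.965 with DMSO and 0.970 and 0.994 with emetine (0.0145, adjusted p = 0.489). The difference between lines was -0.179 (adjusted p = 0.00681, limma 0.197) and was not called without any of 5 of the 8 libraries (adjusted p 0.0614 to 0.196). These were the second control of each line, both MCF10A emetine libraries and the second HMLE TWIST emetine library. Without that last library the change in HMLE TWIST was -0.0991, below the minimum for a call. When the 167-nt exon alone was skipped, its level stayed at 0.994 and 0.969 under emetine (-0.0172, adjusted p = 0.096).

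The exon of the same length in CLK1, also exon 7, had a smaller change in the same line, which was not called. Its level was 1 in both HMLE TWIST controls and 0.916 and 0.958 under emetine, with 39 and 13 skipping reads. The change of -0.0632 had an adjusted p of 0.0176 and was below the minimum of 0.1. Here too the skipping reads needed for a test came from the emetine libraries alone. That event was in the HMLE TWIST table alone. The 80-nt exon 11 of CLK2 was at 1 and 0.997 in HMLE TWIST with DMSO and 0.913 and 0.937 with emetine (-0.0732, adjusted p = 0.00108). In MCF10A its skipping form had at most 2 reads in a library. The 167-nt exon of CLK3 kept a level of 0.995 and 0.992 under emetine in HMLE TWIST, with at most 5 skipping reads.

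**Figure D3:**
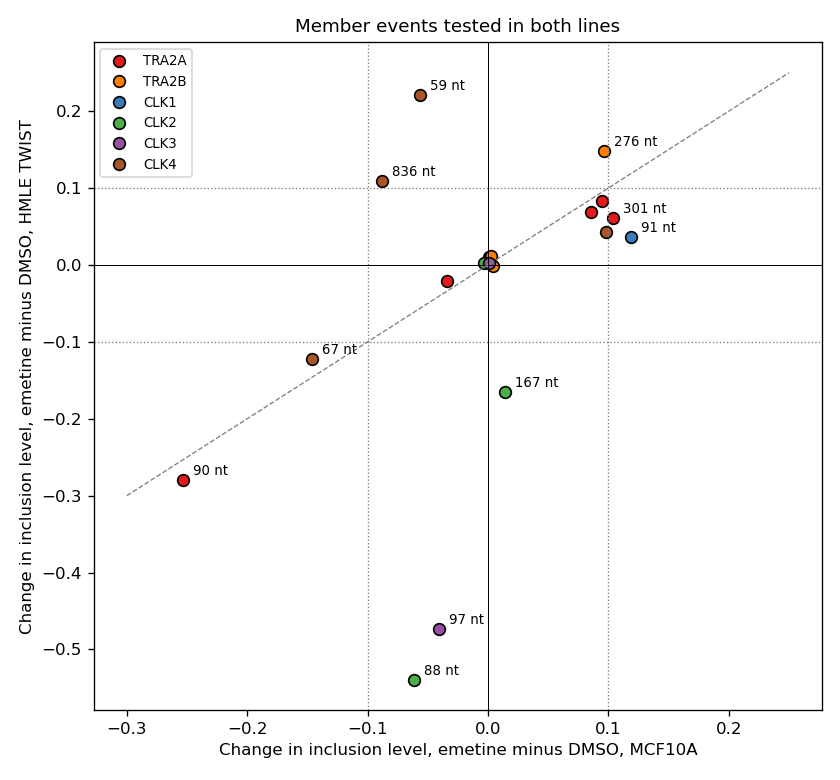
Change of inclusion level under emetine in MCF10A (horizontal axis) and HMLE TWIST (vertical axis) for the 19 member events tested in both lines, coloured by gene, with exon lengths beside events that moved by at least 0.1 in either line (dotted lines) and equal changes on the dashed line. CLK2 (88 nt), CLK3 (97 nt) and CLK2 (167 nt) lie far below the line of equal change. Of the 19 events, 14 have the same sign in both lines, but some share reads and some changes are close to none. The share with the same sign over all events was not computed.

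Measured against the junction of exon 1 with the next coding exon, the poison exons of the TRA2 genes had higher levels under emetine in both lines, and the rise was called in HMLE TWIST for TRA2B and in MCF10A for TRA2A. The TRA2B exon of 276 nt lies on chromosome 3 at 185649365 to 185649640, minus strand (gene ENSG00000136527.17), and is exon 2 of a transcript classed as nonsense-mediated decay, between introns of 5972 and 4842 nt. Its level in HMLE TWIST was 0.0761 and 0.0965 with DMSO and 0.240 and 0.228 with emetine. In MCF10A it was 0.0743 and 0.0506 with DMSO and 0.169 and 0.148 with emetine. Control and emetine libraries did not overlap in either line, and both HMLE TWIST emetine libraries were above both of MCF10A. The level rose by 0.148 in HMLE TWIST (adjusted p = 3.06e-05, limma 0.0467), from 0.0863 ± 0.014 to 0.234 ± 0.0086 (SD, n = 2). In MCF10A the change was 0.096 (adjusted p = 5.26e-05, limma 0.0746), just below the minimum for a call, and 0.108 without the first MCF10A control, which was then called. The difference of the responses was 0.0516 (adjusted p = 0.683). Under emetine the level was 0.0755 higher in HMLE TWIST (adjusted p = 2.02e-09, limma 0.414), again under 0.1.

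Reads of both TRA2B forms were higher under emetine. Inclusion reads were 134 and 82 in MCF10A with DMSO and 1343 and 1028 with emetine, 10.6-fold higher after scaling to library totals. The HMLE TWIST values were 193 and 201 with DMSO and 2249 and 1726 with emetine, 10.1-fold higher. The skipping form, which encodes the protein, was 3.8-fold higher in MCF10A and 3.07-fold higher in HMLE TWIST. In every group the skipping form of this event remained more frequent than its inclusion form. Against a rarer junction that reaches a coding exon further downstream, listed in HMLE TWIST alone, the level of the poison exon was 1 in both controls and 0.977 and 0.989 under emetine (-0.0170, adjusted p = 0.281).

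TRA2A has its poison exon at the same place in the gene, on chromosome 7, minus strand (gene ENSG00000164548.10), in 3 forms of 301, 312 and 79 nt that begin at 23562051 and end at 23561751, 23561740 and 23561973. The level of the 301-nt form in MCF10A was 0.121 and 0.187 with DMSO and 0.254 and 0.261 with emetine. In HMLE TWIST it was 0.0831 and 0.0742 with DMSO and 0.106 and 0.173 with emetine. Emetine libraries were above their controls in both lines, with a wider spread in HMLE TWIST. The level rose by 0.104 in MCF10A (adjusted p = 0.0151, limma 0.2), but by 0.0707 with an adjusted p of 0.201 without the first MCF10A control. The change in HMLE TWIST was 0.0609 (adjusted p = 0.195, limma 0.244). In transcripts that hold the 90-nt cassette exon after exon 1, the 301-nt form was at 0.742 and 0.737 in MCF10A with DMSO and 0.668 and 0.696 with emetine, a change in the other direction that was not called (-0.0572, adjusted p = 0.652). There it was 0.615 and 0.727 in HMLE TWIST with DMSO and 0.600 and 0.596 with emetine, with too few reads for a test. The other forms share the upstream junction and the skipping reads. Their changes were 0.0949 and 0.0827 for 312 nt and 0.0856 and 0.0692 for 79 nt, in MCF10A and HMLE TWIST, and none of these was called, though both MCF10A changes were called without the second control (0.135 and 0.112).

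The order of the lines under emetine was opposite in the TRA2 genes. In TRA2A the level under emetine was lower in HMLE TWIST than in MCF10A for each form, with differences of -0.118 for 301 nt (adjusted p = 4.57e-07, limma 0.246), -0.109 for 312 nt (adjusted p = 8.03e-06, limma 0.333) and -0.101 for 79 nt (adjusted p = 5.51e-06, limma 0.303). All 3 were below the minimum without the first HMLE TWIST emetine library, at -0.0847, -0.0673 and -0.0688, and the 79-nt form was at -0.0941 without the second MCF10A emetine library. In the controls the differences were -0.0752, -0.097 and -0.0842, with adjusted p-values of 0.135, 0.0811 and 0.0846.

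TRA2A also has a 90-nt cassette exon at 23570800 to 23570889, 518 nt after exon 1, whose level depended on the exon it was spliced to. When joined to the poison exon, its level was 0.429 and 0.397 in MCF10A with DMSO and 0.137 and 0.182 with emetine. In HMLE TWIST the same values were 0.363 and 0.453 with DMSO and 0.144 and 0.111 with emetine. The groups were far apart in both lines. The level fell by 0.254 in MCF10A (adjusted p = 0.00173, limma 0.0435) and the change in HMLE TWIST was -0.280 (adjusted p = 0.005, limma 0.0311). This was the single member event called in both lines. Its inclusion reads were 2.76-fold higher in MCF10A and 2.02-fold higher in HMLE TWIST. Its skipping reads, which join exon 1 directly to the poison exon, were 10.2-fold and 9.2-fold higher, and they also count as inclusion reads of the 3 poison exon forms. When joined to the exon after the poison exon instead, the level of the 90-nt exon was 0.0881 and 0.159 in MCF10A with DMSO and 0.0791 and 0.1 with emetine. That change was -0.0341 (adjusted p = 0.232), and in HMLE TWIST it was -0.0202 (adjusted p = 0.198).

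Across all their exons, reads of TRA2A, TRA2B, CLK1 and CLK4 were several-fold higher under emetine, while those of CLK2 and CLK3 stayed closer to their control numbers. Over events with at least 20 reads in every library of a line, the median ratio of reads, emetine over DMSO, was 5.76 in MCF10A and 4.65 in HMLE TWIST for TRA2A and 3.62 and 3.45 for TRA2B. It was 4.09 and 3.68 for CLK1 and 5.32 and 5.76 for CLK4. It was 0.754 and 1.09 for CLK2 and 1.47 and 1.09 for CLK3. Over all tested events it was 1.16 and 1.32, and a ratio of 2 or more was reached by 22.2% of events in MCF10A and 27.4% in HMLE TWIST. Every event of TRA2A, CLK1 and CLK4 reached it in both lines, as did 8 of 8 events of TRA2B in MCF10A and 13 of 14 in HMLE TWIST, whereas no event of CLK2 or CLK3 did. Events of a gene share reads, and these ratios are given as a description without a test.

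**Figure D4:**
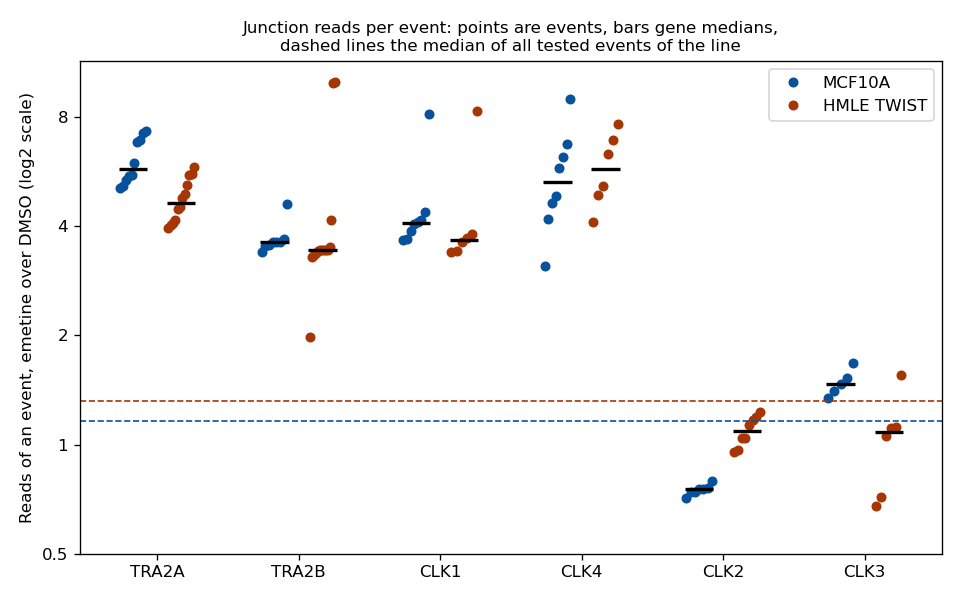
Ratio of the reads of an event under emetine to those in DMSO, scaled to library totals, on a log2 axis, with a point for each member event, a bar for the median of a gene and dashed lines at the medians of all tested events (1.16 in MCF10A, 1.32 in HMLE TWIST). The events of TRA2A, TRA2B, CLK1 and CLK4 lie well above the dashed lines, and those of CLK2 in MCF10A lie below 1.

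The other 29 exons of these genes are those left after every exon with a called event was set apart. Their lack of calls follows from that rule, and many of them had no tested event. Most had high inclusion levels. In the MCF10A controls, 23 of 25 with a level had a mean of 0.95 or more, and under emetine 23 again did. In HMLE TWIST it was 21 of 23 in the controls and 19 of 23 under emetine. They include the 167-nt exon of CLK1 and the 80-nt exon of CLK2 given above. The 41-nt exon of CLK4 (178032826 to 178032866) was at 0.0439 and 0.0645 in MCF10A with DMSO and 0.0152 and 0.0164 with emetine, on 6 to 14 inclusion reads (-0.0384, adjusted p = 0.0275, limma 0.0483), below the minimum change. They also include coding exons of TRA2B, such as the 60-nt exon, whose level was between 0.989 and 0.995 in every library. Where a form was at 0 or a few reads in all libraries, the event was not tested, and a change was not detectable at that depth.

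Other genes of the SR protein system were read in the same fits from a list chosen with earlier results known. Of the 12 SR protein genes, 10 were tested in MCF10A and 7 had a called event (5 higher alone, 1 lower alone, 1 both ways), and in HMLE TWIST 6 of 9 did (4 higher, 2 lower). This was 12 of 27 events in MCF10A (44.4%) and 9 of 27 in HMLE TWIST (33.3%), against 13.0% and 14.0% of all tested events, with median changes of 0.0113 and 0.00235. Of the 5 and 4 tested genes for other kinases of SR proteins, 2 had a called event in each line, namely SRPK2 and PRPF4B in MCF10A and SRPK2 and DYRK1A in HMLE TWIST. This was 3 of 19 events (15.8%) and 2 of 15 (13.3%), close to the same shares of all events. Of 7 SR-related genes, 4 and 5 had one, with 5 of 22 events (22.7%) and 7 of 24 (29.2%). Of 2 tested genes whose exons are known TRA2 targets, none had one in MCF10A and NASP did in HMLE TWIST, lower. This was 0 of 14 events in MCF10A and 1 of 20 (5.0%) in HMLE TWIST, below the shares of all tested events.

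Within that system 9 genes had the same event called in both lines, and the 5 with the largest smaller change are given. SRSF3 (456-nt exon, chromosome 6, 36567598 to 36568053) rose in MCF10A from 0.0235 ± 0.00046 to 0.533 ± 0.079 (SD, n = 2). In HMLE TWIST it rose from 0.0371 ± 0.0060 to 0.507 ± 0.045. SRSF4 (136 nt) rose by 0.399 and 0.282, SRSF7 (449 nt) by 0.256 and 0.347 and SRSF6 (268 nt) by 0.306 and 0.304, in MCF10A and HMLE TWIST. These encode SR proteins, and SRRM1, a scaffold protein of the spliceosome, rose by 0.428 and 0.342 in its 130-nt exon. All 5 rose in both lines. Of the other 4, SREK1 rose as well (0.288 and 0.117), whereas SAFB2 (-0.137 and -0.187), SRSF1 (-0.148 and -0.113) and SAFB (-0.104 and -0.112) fell in both lines. These 4 are named after their values were seen.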

How the data were processed

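RNA was measured in 8 libraries (4 groups of 2). Per the labels' protocols, Trizol was used to isolate total RNA, and TruSeq libraries of its polyadenylated part were stranded and read from both ends. STAR 2.5.3a and GRCh37 are named in the submitters' processing notes. The version of rMATS, whose format the tables have per the file headers, and its annotation are not given in the sources used here. The deposited junction read counts per event, with the replicates of a group in a cell, were used as deposited. The deposited p-values and FDR are the authors' and were used only as an alternative. The difference score deposited by the authors subtracts the mean level of group 2 from that of group 1. Group 1 was taken to be DMSO and group 2 emetine, following the word order of each table's name.

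The first listed library of a group is called the first here, and the cells carry no replicate number. Coordinates are those of the files, counted from 1. Events were tested with at least 20 reads in every library and 10 reads of the rarer form, using a quasi-binomial logistic model with dispersions moderated by limma 3.58.1 (R 4.3.3) and floored at 1, two-sided. limma was also run on log2 odds with 0.5 added to each count. Total junction reads per library set the precision, and low counts are given beside the results. The script was tested on simulated data. Exons were matched to GENCODE 29 (26556 of 29392, 90.4%). The members and gene lists were chosen with earlier results of these data known, and the named genes outside the members are the 5 with the largest smaller change among events called in both lines. Same-numbered libraries did not deviate together (correlations 0.0177 and 0.00667), so they were not paired. Alternatives changed the read minimum, the rarer-form minimum, the length correction, the minimum change, the dispersion, the model and the libraries.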

Additional observations from a re-analysis of the deposited data

Results flagged for a closer look

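For 4 exons the response to emetine differed between the lines by the line-by-treatment term over 8 libraries (quasi-binomial model, Benjamini-Hochberg adjusted), HMLE TWIST change minus MCF10A change. The difference was -0.478 for CLK2 exon 4 (88 nt) and -0.179 for the CLK2 167-nt exon. It was 0.278 for the CLK4 59-nt exon and 0.198 for the 836-nt exon that shares its skipping reads. Limma called none of the 4, and none was called with the replicate block or with each event's own dispersion alone. The CLK4 calls were lost when any library was left out, and the CLK2 calls without some of the libraries.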

How the results depend on the processing

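No called change reversed under any alternative run. Changes that were not called under any of these settings turned sign in some, and their ranges on leaving out a library follow. The change in HMLE TWIST was -0.0376 to 0.111 for CLK1 exon 4, -0.0195 to 0.104 for CLK4 exon 4 and -0.00366 to 0.00985 for the CLK2 95-nt exon skipped alone, and that of the TRA2A 90-nt exon in MCF10A was -0.0698 to 0.0016. The line-by-treatment difference was -0.117 to 0.00631 for CLK4 exon 4, -0.0772 to 0.123 for the CLK4 67-nt exon, -0.0541 to 0.0296 for TRA2A 312 nt (0.000506 without the length correction), -0.0483 to 0.0154 for 79 nt, -0.0218 to 0.0496 for 90 nt and -0.000474 to 0.013 for the CLK2 95-nt exon. Between controls it was -0.141 to 0.0602 for the CLK4 67-nt exon, -0.00588 to 0.0252 for CLK2 exon 4 and -0.0152 to 0.00175 for CLK3 exon 4, and under emetine -0.00765 to 0.00585 for the CLK2 95-nt exon. Of the 3 member events called in MCF10A, the count was 0 with a replicate block, 0 with each event's own dispersion alone, 7 without the length correction, 12 with no minimum change and 1 with a minimum of 0.2; leaving out a library gave 0 to 5. Of 8 in HMLE TWIST, it was 0 with the block, 0 with the own dispersion alone and 5 with a minimum of 0.2; leaving out a library gave 0 to 8. Of 4 for the line-by-treatment term, it was 2 with at least 50 reads, where the other 2 were no longer tested, 0 with the block, 0 by limma, 0 with the own dispersion where larger, 0 with the own dispersion alone and 2 with a minimum of 0.2; leaving out a library gave 0 to 2. The 1 event that differed between controls was not tested with at least 50 reads (a count of 0), and it became 0 with the block, limma and the own dispersion where larger or alone, and 0 without any library. Of 10 between lines under emetine, it was 0 with the block, 1 by limma, 0 with the own dispersion alone and 4 with a minimum of 0.2; leaving out a library gave 6 to 10. With the own dispersion alone, 4 of 28 members for the line-by-treatment term, 0 between controls and 14 under emetine had an unadjusted p under 0.05. Of all 31825 events, 1987, 3630 and 7023 had one, in that order. The pairing used for the replicate block is an assumption, since the tables carry no numbers and same-numbered libraries did not deviate together, and the block leaves 1 residual degree of freedom in a line. Apart from the unadjusted counts, the member counts under the alternative settings have no shares of all events under the same setting beside them. They show how the calls depend on the setting and are not weighed against the background. The cause of the other changes was not tested. Depth limits the control levels of CLK4 and the skipping forms of CLK2 and CLK3, which rest on few reads.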
